A study of Homo sapiens with 17 samples.

Results

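The genes described here belong by name to families that make up or regulate the human splicing machinery. They were chosen by name from the RefSeq protein-coding genes, as every symbol that starts with HNRNP (other than HNRNPU, HNRNPUL1 and HNRNPUL2), SRSF, SNRP (other than SNRPN), SF3A, SF3B, PRPF, LSM or U2AF. The rule used no measured value and found 85 of 20037 genes, of which 23 were HNRNP, 15 LSM, 12 SRSF, 12 PRPF, 11 SNRP, 9 SF3A or SF3B and 3 U2AF genes. The prefix also took in LSMEM1 and LSMEM2, membrane proteins that share only the first letters of their names with the LSM family. Some LSM members, such as LSM10 and LSM14B, have roles other than splicing. All members are called splicing genes below for short. Binding and chromatin marks were mapped by CUT&Tag, in which an antibody guides a transposase to its target in permeable cells and the released DNA is sequenced, in H1 cells, an established line of human embryonic stem cells. The 17 libraries fell into 2 of HNRNPU in untransfected cells, 3 of RNA polymerase II phosphorylated at serine 2 of its tail (POLIIS2P; 1 shHNRNPU#1 and 2 shLUC), and, for each of the histone marks H3K4me1 and H3K27ac, 2 shHNRNPU#1, 2 shHNRNPU#2 and 2 shLUC. In the shHNRNPU groups a lentivirus carried 1 of a pair of short hairpin RNAs against HNRNPU, in the shLUC groups the hairpin was against luciferase, a gene these cells lack, and all infected cells were selected with puromycin. The cells were cultured in mTeSR1 on Matrigel in all groups, and the labels do not state whether the repeats of a group came from separate cultures.

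Splicing removes introns from the primary transcript. Small nuclear ribonucleoproteins built on Sm and LSM proteins (SNRP and LSM genes) recognise the splice sites, the SF3A and SF3B complexes and U2AF hold the branch point and the 3′ splice site, and PRPF proteins drive the rearrangements that make the spliceosome catalytic. SRSF proteins bind exons and generally favour their inclusion, whereas HNRNP proteins coat nascent RNA and often oppose it. HNRNPU itself is an abundant nuclear RNA-binding and chromatin-associated protein of the last group. H3K27ac marks active promoters and enhancers, H3K4me1 is typical of enhancers and of the flanks of promoters, and serine 2 phosphorylation marks elongating polymerase.

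Each deposited list gave the summit (the position of strongest signal) of every peak with a score, and the lists held between 34649 and 214333 summits. A gene was given its highest-scoring summit between 1000 bp before and 1000 bp after the gene, as a percentile of that library's own list, because scores grow with sequencing depth and the depth was unknown. The 4 shLUC histone libraries did not behave as titled. Across all genes, the Spearman correlation of the libraries titled H3K4me1 shLUC was 0.199 to 0.227 with the H3K4me1 shHNRNPU libraries and 0.660 to 0.781 with the H3K27ac shHNRNPU libraries. Those titled H3K27ac shLUC correlated at 0.856 to 0.897 with H3K4me1 and at 0.179 to 0.259 with H3K27ac, and the names of the peaks inside the 4 files carried the antibody opposite to the title. Every comparison of these libraries is therefore given as labelled and with the names exchanged. No library measured HNRNPU RNA or protein after knockdown and there was no control antibody, so neither the knockdown nor the background could be checked, and p-values measure the spread between these libraries, which may be technical. POLIIS2P summits lay in all 3 libraries at 5 of 6 pluripotency genes and 4 of 8 genes that mark other cell types. H3K27ac summits lay in all 4 shHNRNPU libraries at 4 of 6 and 0 of 8, H3K4me1 summits at 5 of 6 and 6 of 8, and HNRNPU summits in both repeats at 3 of 6 and 3 of 8.

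The promoters of 5 members are shown because strong HNRNPU summits lay inside them in both repeats, and 1 more without a summit is shown as a contrast. They were chosen after their values were seen, and other members with strong summits are not shown. All windows run from 250 bases before to 50 bases after the gene's start, 5′ to 3′ on the strand of the gene, and are credited to RefSeq on GRCh38.p14. Capitals mark matches, on either strand, to short letters known as parts of factor motifs. These are CCGGAAG of the ETS factors, AAGATGG of YY1, CGCATGCG of NRF1, CCAAT of NF-Y, TGACGTCA of the cAMP response element and TATAAA of the TATA box. SF3B6 (chr2:24076277-24076576, minus strand) encodes the p14 protein that touches the branch point, and both HNRNPU repeats had their best summit at −222 bp from its start. HNRNPC (chr14:21269393-21269692, minus strand) binds uridine tracts in nascent RNA and had the summit at −140 bp in both repeats. HNRNPA2B1 (chr7:26200697-26200996, minus strand), a packaging hnRNP, had it at −218 and −220 bp. LSM3 (chr3:14178567-14178866, plus strand), of the U6-binding LSM ring, had it at −108 and −59 bp. SNRPB (chr20:2470740-2471039, minus strand), which encodes the core Sm protein B, had it at −142 and −147 bp. HNRNPM (chr19:8444725-8445024, plus strand), a splicing regulator, is the contrast, since it had no HNRNPU summit.
SF3B6: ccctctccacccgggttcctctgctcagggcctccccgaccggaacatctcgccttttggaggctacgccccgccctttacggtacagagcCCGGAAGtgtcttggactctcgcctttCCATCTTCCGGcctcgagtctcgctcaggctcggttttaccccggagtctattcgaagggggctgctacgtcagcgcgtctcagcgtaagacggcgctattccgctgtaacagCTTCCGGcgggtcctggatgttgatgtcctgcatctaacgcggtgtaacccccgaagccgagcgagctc
HNRNPC: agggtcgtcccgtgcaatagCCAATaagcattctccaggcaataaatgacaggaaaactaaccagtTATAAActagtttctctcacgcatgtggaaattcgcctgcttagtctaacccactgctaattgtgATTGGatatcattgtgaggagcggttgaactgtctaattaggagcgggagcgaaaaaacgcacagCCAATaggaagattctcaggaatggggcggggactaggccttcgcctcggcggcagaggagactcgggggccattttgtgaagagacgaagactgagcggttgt
HNRNPA2B1: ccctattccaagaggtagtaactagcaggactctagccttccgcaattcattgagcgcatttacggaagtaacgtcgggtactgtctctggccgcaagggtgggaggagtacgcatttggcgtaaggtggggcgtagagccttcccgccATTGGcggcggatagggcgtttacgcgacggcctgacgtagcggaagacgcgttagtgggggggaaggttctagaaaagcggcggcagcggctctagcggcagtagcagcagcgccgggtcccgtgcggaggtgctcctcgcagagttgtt
LSM3: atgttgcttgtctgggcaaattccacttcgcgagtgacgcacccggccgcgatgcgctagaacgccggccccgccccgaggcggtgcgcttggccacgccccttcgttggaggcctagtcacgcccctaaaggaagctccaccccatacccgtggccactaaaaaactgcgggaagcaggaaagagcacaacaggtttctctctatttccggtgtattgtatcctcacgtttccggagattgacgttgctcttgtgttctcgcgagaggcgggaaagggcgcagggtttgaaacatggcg
SNRPB: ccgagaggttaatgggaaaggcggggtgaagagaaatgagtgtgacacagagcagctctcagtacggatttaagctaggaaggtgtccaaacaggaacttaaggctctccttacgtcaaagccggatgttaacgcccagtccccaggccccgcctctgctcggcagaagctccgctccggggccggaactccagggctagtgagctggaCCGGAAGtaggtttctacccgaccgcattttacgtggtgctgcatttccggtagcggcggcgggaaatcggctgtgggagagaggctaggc
HNRNPM: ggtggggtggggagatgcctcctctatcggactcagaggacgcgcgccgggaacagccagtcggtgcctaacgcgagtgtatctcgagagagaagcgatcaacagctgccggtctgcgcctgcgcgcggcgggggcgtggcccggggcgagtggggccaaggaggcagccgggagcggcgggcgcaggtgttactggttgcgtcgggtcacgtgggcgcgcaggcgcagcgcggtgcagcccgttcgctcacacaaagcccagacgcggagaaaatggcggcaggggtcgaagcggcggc

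SF3B6 held CCGGAAG 3 times, and one of these matches overlapped a match to AAGATGG on the same strand, so that both stand in a single run of capitals. HNRNPC held CCAAT 3 times and TATAAA once, HNRNPA2B1 held CCAAT once, and SNRPB held CCGGAAG once. The windows of LSM3 and HNRNPM held none of the letters searched. A promoter was listed for 73 members. Of these, 23 (31.5%) held CCGGAAG, against 14.2% of 15843 promoters of protein-coding genes. CCAAT occurred in 32 (43.8%) against 36.4%, AAGATGG in 7 (9.59%) against 6.40%, and CGCATGCG in 4 (5.48%) against 2.88%. TATAAA occurred in 6 (8.22%) against 9.63%, and TGACGTCA in 0 of 73 against 2.59%. The median GC content of the members' windows was 61.3%, against 62.7% over all. The best HNRNPU summit lay inside the window in both repeats for 32 members and in 1 repeat for 18.

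The members were high in the HNRNPU, POLIIS2P and H3K27ac lists. In the H3K4me1 lists they were low, though less so beside genes of like length. HNRNPU had a summit in both repeats at 69 of the 85 members (81.2%), against 63.7% of all protein-coding genes, and above the 90th percentile in both repeats at 28 (32.9%), against 13.3%. POLIIS2P summits were above the 90th percentile in all 3 libraries at 39 members (45.9%), against 23.3%. H3K27ac in the 4 shHNRNPU libraries was above it at 27 (31.8%), against 10.2%, whereas H3K4me1 was above it at 7 (8.24%), against 19.6%. The libraries titled H3K4me1 shLUC had 39 members (45.9%) above the 90th percentile in both repeats, and those titled H3K27ac shLUC had 9 (10.6%), so that the 2 titles stood in the opposite order to the shHNRNPU libraries.

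Longer genes can hold more summits, but the members were shorter than most genes, with a median length of 14187 bp against 24115 bp. Among genes between 8077 and 22113 bp, the middle quartiles of the members' lengths, HNRNPU was above the 90th percentile in both repeats at 17 of 43 members (39.5%), against 14.1% of 4758 genes. The same range gave 12 of 43 (27.9%) against 6.68% for H3K27ac and 3 of 43 (6.98%) against 9.82% for H3K4me1. The H3K4me1 gap was thus smaller than over genes of any length (8.24% against 19.6%). The part of gene length in it was not tested. Leaving out the LSMEM, HNRNPCL and HNRNPA1L genes, 68 of 77 members (88.3%) had an HNRNPU summit in both repeats.

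**Figure D1:**
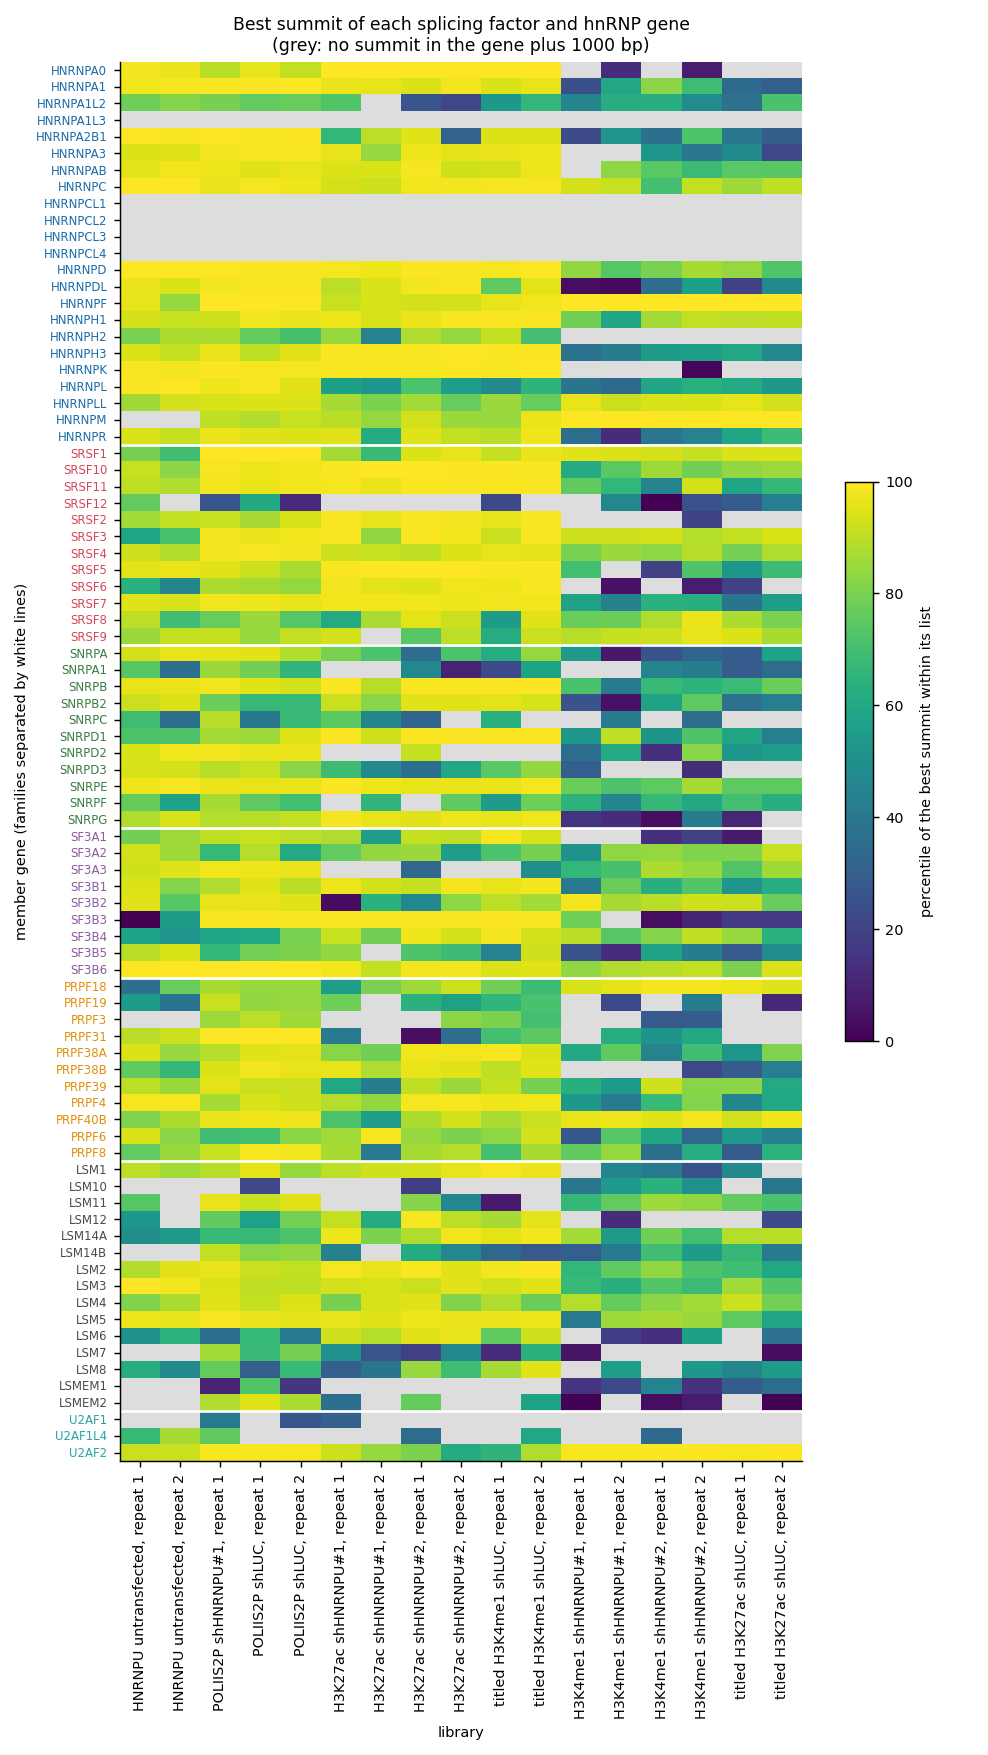
Percentile of the best summit of the members (rows, 1 member not drawn, grouped by family) in each of the 17 libraries (columns, as titled). Grey cells have no summit. The HNRNPU, POLIIS2P and H3K27ac shHNRNPU columns are high for most rows, the H3K4me1 shHNRNPU columns are lower, and the columns titled H3K4me1 shLUC and H3K27ac shLUC look like the other mark.

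The HNRNP genes had the largest share of high HNRNPU summits, with 13 of 23 (56.5%) above the 90th percentile in both repeats. The SNRP genes were close, at 6 of 11 (54.5%). HNRNPD (AUF1), which also binds AU-rich elements in mRNA, was at the 99.9th percentile in both repeats. HNRNPC was at 99.8 and 99.7, HNRNPA2B1 at 99.7 and 99.2, and HNRNPL, a reader of CA-rich RNA, at 99.5 and 99.7. These genes thus stood within the top 1% of each list, and their repeats differed by less than 1 percentile point. HNRNPK, which binds poly(C) RNA and DNA, was at 99.0 and 98.3. HNRNPA1, the most studied splicing repressor of the group, was at 97.7 and 98.7.

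The families other than HNRNP and SNRP had smaller shares above the 90th percentile. In the SF3 family only SF3B6 (99.9 in both repeats) and SF3A3 (92.9 and 95.2), a subunit of the U2 particle, were above the 90th percentile in both, of 9 genes. SF3B1, the largest SF3B subunit and a frequent target of cancer mutations, was at 94.4 and 81.5, and SF3B4 at 58.0 and 52.4. SF3B3 was the lowest member with a summit in both, at 0.13 and 54.7, although its 3 POLIIS2P libraries were at 98.7 to 99.5 and its 4 H3K27ac shHNRNPU libraries at 98.5 to 98.8. SF3B3 thus lacked a strong HNRNPU summit beside high polymerase and acetylation, and it was picked out after its values were seen.

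Of the SNRP genes, 11 of 11 had an HNRNPU summit in both repeats and 6 were above the 90th percentile in both. SNRPE, a core Sm protein, was at 97.3 and 98.6, and SNRPB at 96.5 and 97.0. SNRPD1, another Sm protein, was lower at 72.2 and 71.9. The 2 repeats placed SNRPE, SNRPB and SNRPD1 in the same order, but not every Sm gene. SNRPD2, at 94.4 and 97.8, was below SNRPB in repeat 1 and above it in repeat 2.

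Among the 12 SRSF genes, SRSF5 (95.8 and 96.6) and SRSF7 (95.3 and 93.9), both regulators of exon inclusion, were above the 90th percentile in both repeats. SRSF1, the founding SR protein, was at 79.4 and 69.5, SRSF2 at 86.0 and 90.7, and SRSF3 at 59.1 and 71.1. SRSF1, SRSF2 and SRSF3 lay below HNRNPD, HNRNPC, HNRNPA2B1, HNRNPL, HNRNPK and HNRNPA1 in both repeats. Some of those HNRNP genes were named for their high values, so this order is not a separate result. HNRNPM, also an HNRNP gene, had no HNRNPU summit.

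In the PRPF family 2 of 12 genes were above the 90th percentile in both repeats, with PRPF4, a U4/U6 particle protein, at 98.8 and 98.9. PRPF8, which lies at the catalytic centre, was at 76.0 and 85.2. Of 15 genes with the LSM prefix, LSM3 (99.6 and 98.2) and LSM5 (97.5 and 96.9), both in the ring that holds U6 RNA, passed in both repeats, and LSM2 of the same ring was at 88.6 and 95.5. U2AF2, which reads the polypyrimidine tract, was at 92.0 and 91.9. U2AF1L4, a relative of its partner U2AF1, was at 67.8 and 86.5.

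**Figure D2:**
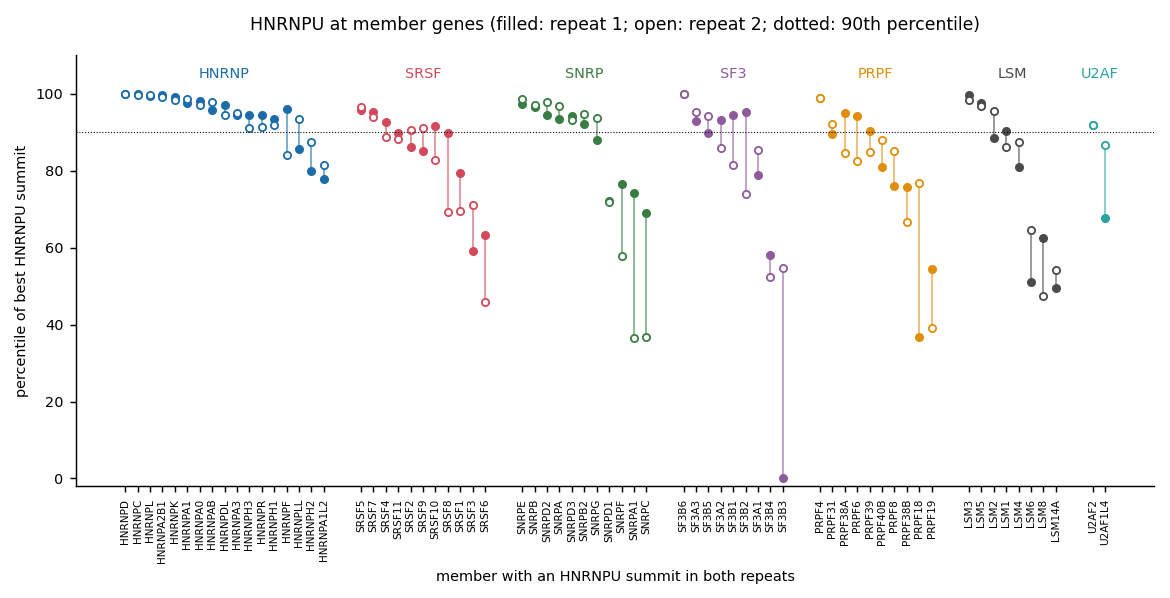
HNRNPU percentile of each member in untransfected cells, by family. Filled and open points are repeats 1 and 2 of the members with a summit in both (1 not drawn), joined by a line, and the dotted line is the 90th percentile. Above the 90th percentile in both repeats lie 13 of 23 HNRNP genes and 6 of 11 SNRP genes. SF3B3 lies at the bottom, at 0.13 in repeat 1.

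No HNRNPU summit was found in either repeat at 13 members, and 3 more had one in 1 repeat only (LSM11, LSM12 and SRSF12). HNRNPCL1, HNRNPCL2, HNRNPCL3, HNRNPCL4 and HNRNPA1L3 are retrocopies of HNRNPC and HNRNPA1, and had no summit in any of the 17 libraries. Near-identical copies share sequence, so reads there can be discarded or split, and their values are uncertain. U2AF1, which reads the 3′ splice site, had summits in 3 of 17 libraries (percentiles 30.7, 41.1 and 26.8), and it also has a near-identical copy, so its low values are uncertain too.

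The other 7 were HNRNPM, LSM7, LSM10, LSM14B, LSMEM1, LSMEM2 and PRPF3. HNRNPM was active by other marks, with POLIIS2P at 90.5 in shHNRNPU#1 and 88.6 and 91.8 in shLUC, and H3K27ac shHNRNPU at 84.2 to 93.1. PRPF3, a partner of PRPF4 in the U4/U6 particle, had POLIIS2P at 85.5 in shHNRNPU#1 and 89.96 and 85.7 in shLUC. In the same order of libraries, LSM14B, an mRNA-storage protein, was at 90.7, 82.1 and 83.8, and LSM7, of the LSM ring, at 86.2, 67.3 and 79.4. LSM10, a subunit of the U7 particle that processes histone mRNA, had a POLIIS2P summit in 1 library, at 21.4. Absence of a summit therefore went with strong polymerase summits at some genes and weak ones at others. The series-wide list of 48095 HNRNPU intervals of 400 bp held an interval for 72 of the 85 members (84.7%), against 76.4% of all genes, and for 0 of the 13 without a summit.

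At splicing genes the HNRNPU summit sat just before the start. Among members with a listed start, the best summit lay within 1000 bp of it at 57 of 63 (90.5%) in repeat 1 and 54 of 60 in repeat 2, against 66.2% and 65.9% of all genes. The median signed distance of those was −140 and −107 bp, and 19.3% and 18.5% lay downstream of the start, against 36.2% and 36.3% over all genes. The best summits of the repeats were within 250 bp of each other at 54 of 69 members (78.3%), against 70.8% of all genes. Most of these positions thus did not move between repeats, at members as at genes in general.

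The marks were placed differently around the same starts. The best H3K27ac summit of the shHNRNPU libraries was within 1000 bp of the start at 70.5% to 75.8% of members, against 40.8% to 45.9% of all genes. Of those, 46.5% to 58.7% were downstream, against 49.5% to 50.9%. H3K4me1 in the shHNRNPU libraries was near the start at 49.1% to 58.6%, against 33.2% to 37.4%, and 7.69% to 15.2% of those were downstream, against 29.8% to 32.6%. The libraries titled H3K4me1 shLUC had 56.5% and 54.2% downstream, against 51.8% and 53.5%, and those titled H3K27ac shLUC 13.8% and 9.68%, against 33.8% and 34.6%. POLIIS2P was near the start at 60.9% to 66.2% of members, against 48.1% to 50.4%, and within 1000 bp of the far end at 14.5% to 19.1%, against 11.5% to 12.7%.

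**Figure D3:**
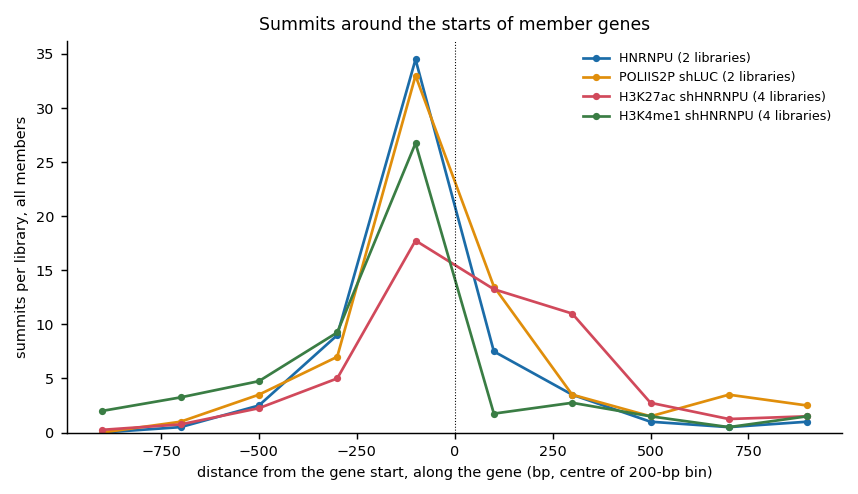
Summits of the members per library (vertical axis) by distance from the start of the gene (bp, upstream negative) in bins of 200 bp, for HNRNPU and POLIIS2P shLUC (2 libraries each) and H3K27ac and H3K4me1 shHNRNPU (4 each). Each has its highest bin just upstream of the start, at 34.5 summits per library for HNRNPU between −200 and 0 bp, and H3K27ac also extends downstream.

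Where HNRNPU had a summit in both repeats, both POLIIS2P shLUC libraries had a summit within 500 bp of it at 62 of 69 members (89.9%), against 77.5% of 12762 genes. All 4 H3K27ac shHNRNPU libraries had one there at 34 of 69 (49.3%), against 37.7%, and all 4 H3K4me1 shHNRNPU libraries at 37 (53.6%), against 61.5%. The strongest polymerase summit was more than 1000 bp from the HNRNPU summit of repeat 1 at 31.9% (23 of 72), 29.6% (21 of 71) and 33.8% (24 of 71) of members, against 36.3%, 36.7% and 38.3% of all genes. For correlations, the level (minus log2 of the share of the list that scores at least as high) was averaged over the libraries of a group. Across members, the HNRNPU level correlated with the POLIIS2P shLUC level at Pearson r 0.52 (Spearman 0.47, n = 68), and across all genes at 0.44 (0.47, n = 11590). With H3K27ac shHNRNPU r was 0.18 (0.24, n = 58), against 0.33 (0.35) across all genes, and with H3K4me1 shHNRNPU −0.16 (−0.33, n = 49), against 0.03 (0.03). These are correlations across genes measured in the same libraries, and genes are not replicates.

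Many of these summits also lay in or near another gene. At 28 of 72 members (38.9%) the best HNRNPU summit of repeat 1 was inside or within 1000 bp of another protein-coding gene. The share over all 14062 genes was 25.8%. Such summits cannot be assigned to the splicing gene alone, and the distance to the start of the other gene was not measured. HNRNPA2B1 and HNRNPA1 shared theirs with CBX3 and CBX5, which encode heterochromatin proteins, and HNRNPK shared its own with RMI1, which works in DNA repair. LSM3 shared its summit with XPC, the damage sensor of nucleotide excision repair, and SF3B6 with TP53I3 and FAM228B. HNRNPC and HNRNPD had no other gene there.

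At some members the strongest H3K4me1 and polymerase summits both lay inside the gene. The best H3K4me1 shHNRNPU summit was over 1000 bp from the start and the far end at 36.2% to 47.2% of members. The share over all genes was 55.3% to 59.4%. For POLIIS2P it was 19.1% to 24.6% of members, against 38.1% to 39.2%. In SRSF1 the best H3K4me1 shHNRNPU summits lay 11663 to 11667 bp after the start and the POLIIS2P summits 11667 to 11701 bp after it, while HNRNPU lay at −149 and −486 bp. SRSF3 showed the same at 5530 to 5564 bp and 5545 to 5547 bp, with HNRNPU at −195 and −84 bp. In HNRNPLL, a relative of HNRNPL, they lay at 21200 to 21202 bp and at 21201 to 21258 bp. Such coincident summits of different antibodies at one place carry no control library here, and whether they come from background was not tested. The HNRNPU summit of repeat 1 was itself away from both ends at 6 of 63 members (9.52%), against 29.9% of all genes. At U2AF2, for example, it lay 16677 bp after the start, at the place of the 4 H3K4me1 shHNRNPU summits.

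POLIIS2P was strong at most splicing genes in both conditions. SF3B6 was at 99.97 in both shLUC libraries and at 99.99 in shHNRNPU#1. SRSF1 was at 99.8 in both shLUC libraries and at 99.9 in shHNRNPU#1, and HNRNPA1 at 99.5 and 99.7 in shLUC and 99.6 in shHNRNPU#1. PRPF31, whose product stabilises the U4/U6 particle, was at 99.8 and 99.6 in shLUC and at 99.6 in shHNRNPU#1. These top genes stayed within a percentile point in the 3 libraries, but percentiles are compressed at the top of a list. In levels, SF3B6 was 0.99 and SRSF1 0.67 above the shLUC mean, both outside the shLUC range. HNRNPA1 and PRPF31 lay within it.

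Between conditions there was a single shHNRNPU#1 library, so there is no test, and each value is set against the range of the 2 shLUC libraries. Differences are given as levels, minus log2 of the share of the list that scores at least as high, on which 1 unit is a 2-fold smaller share. Of 77 members with a summit in all 3 libraries, 38 were above the shLUC range and 20 below, whereas over all 13687 genes 33.0% were above and 38.9% below. The median difference was 0.20 for the members and −0.08 for all genes, beside a median gap between the shLUC libraries of 0.48 and 0.47. Without regard to sign, the median difference was 0.67 for the members and 0.51 for all genes.

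The families differed in direction. SRSF genes were above the range at 7 of 12 and below at 0, SNRP genes above at 8 of 11 and below at 1, and LSM genes above at 8 of 14 and below at 2. PRPF genes were above at 4 of 12 and below at 7, SF3 genes above at 2 of 9 and below at 4, and HNRNP genes above at 9 of 18 and below at 6. Without a second knockdown library these counts may be those of 1 library.

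The members furthest above the shLUC range included HNRNPA2B1, at 99.8 in shHNRNPU#1 against 98.8 and 99.3 in shLUC, a level 2.20 higher. SNRPC, of the U1 particle, was at 89.2 against 40.0 and 67.9 (2.03 higher), and SNRPB at 98.4 against 94.9 and 93.0 (1.85 higher). LSM5 was at 98.7 against 97.1 and 96.0, and LSM2 at 96.5 against 92.0 and 90.7. These genes were chosen for lying furthest above both shLUC libraries, so that position is not a separate result. The member furthest below it was PRPF8, at 91.8 against 98.5 and 97.8, a level difference of −2.19. Its best summit lay 15330 bp after the start in shHNRNPU#1 and 34935 and 34942 bp after it, past the far end of the 34239 bp gene, in shLUC. HNRNPH1, a reader of G-rich RNA, was at 92.7 against 98.0 and 96.7 (−1.51). PRPF38A, of the tri-snRNP, was at 88.9 against 95.3 and 96.1 (−1.36), HNRNPDL, a relative of HNRNPD, at 98.2 against 99.2 in both (−1.16), and PRPF4 at 86.7 against 94.3 and 92.8 (−1.05). These genes were likewise chosen for lying furthest below both shLUC libraries. In shLUC repeat 1 some of these polymerase summits were also inside or within 1000 bp of another gene. These were HNRNPA2B1 (CBX3), LSM5 (AVL9), PRPF8 (RILP), PRPF38A (ORC1) and PRPF4 (CDC26). Those of SNRPC, SNRPB, LSM2, HNRNPH1 and HNRNPDL were not. Shared summits cannot be assigned to the splicing gene alone.

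**Figure D4:**
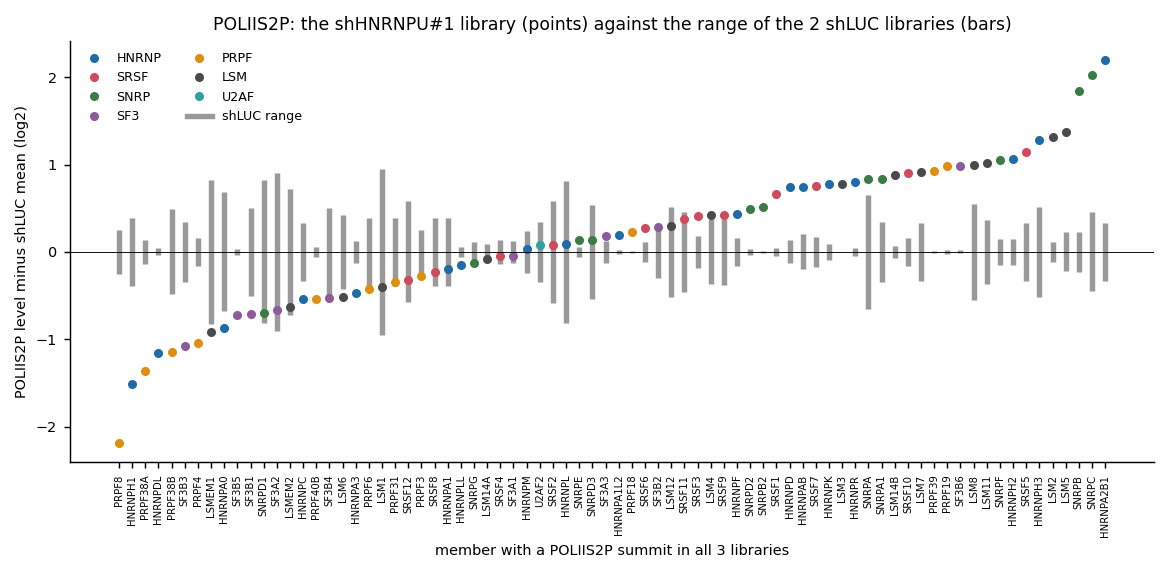
POLIIS2P difference in level (log2 of the list share, shHNRNPU#1 minus the mean of the 2 shLUC libraries) for the members with a summit in all 3 libraries (1 of the 77 not drawn), in order of the difference, coloured by family. Grey bars are the range of the shLUC libraries around their mean. Of the members, 38 lie above the shLUC range and 20 below it, from HNRNPA2B1 at 2.20 to PRPF8 at −2.19.

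Some splicing genes were high for only one of the histone marks in the shHNRNPU libraries, and others for both. HNRNPK had H3K27ac at 98.6 to 99.4 in the 4 libraries and an H3K4me1 summit in 1, at 1.6. HNRNPA0 was at 99.6 to 99.9 for H3K27ac and had H3K4me1 in 2 libraries, at 12.9 and 7.6, and SRSF2 at 96.9 to 99.0 with H3K4me1 in 1 library at 19.5. These 3 genes were thus high in acetylation with little or no H3K4me1. SRSF10, a regulator of stress-dependent splicing, was at 99.5 to 99.8 for H3K27ac and at 61.5 to 85.7 for H3K4me1.

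The 7 members above the 90th percentile of H3K4me1 in all 4 libraries were HNRNPF, HNRNPM, HNRNPLL, SRSF1, PRPF18, PRPF40B and U2AF2. In all 7 these summits lay inside the gene, from 6975 bp after the start in HNRNPF to 28938 bp in PRPF18. Their values are thus not those of the promoters, and whether any come from background was not tested. HNRNPM was at 99.90 to 99.96, HNRNPF at 99.88 to 99.96, with its H3K27ac also high at 91.7 to 93.8, and U2AF2 at 99.1 to 99.4. SRSF1 was at 91.0 to 95.6. PRPF40B, chosen after its values were seen, was at 95.1 to 98.3 for H3K4me1 and 56.2 to 93.7 for H3K27ac. A related pair stood apart, since HNRNPL was at 34.6 to 63.4 for H3K4me1 and HNRNPLL at 92.0 to 96.3, with no overlap between the libraries of the pair. The summits lay 1659 to 1818 bp after the start in HNRNPL and 21200 to 21202 bp after it in HNRNPLL.

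Whether histone marks changed after HNRNPU knockdown depended on how the shLUC libraries were read. As labelled, H3K4me1 (limma with Benjamini-Hochberg adjustment over all genes tested, threshold 0.05) was lower in shHNRNPU at 29 of 49 members tested and higher at 6, whereas 23.6% of all genes tested were lower and 29.8% higher. The median difference in level was −2.14 for the members and 0.29 for all genes. H3K27ac as labelled was higher at 22 of 49 members and lower at 4, against 17.0% and 25.4% of all genes, with medians of 1.85 and −0.26. With the percentile itself as the value, the H3K27ac split was 23 higher and 2 lower for members and 1478 higher and 345 lower for all genes, against 1650 and 2470 on the log2 scale.

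HNRNPH3, a relative of HNRNPH1, carried a large H3K4me1 decrease as labelled, with 37.9 to 56.2 in shHNRNPU and 99.5 and 99.2 in shLUC, a level difference of −6.33 (SE 0.61, limma adjusted p = 3.3e-09). Its H3K27ac was 99.2 to 99.7 in shHNRNPU against 59.9 and 46.7 in shLUC, higher by 6.44 (SE 0.76, limma adjusted p = 4.0e-06). HNRNPM ran the other way, with H3K4me1 at 99.90 to 99.96 in shHNRNPU against 84.7 and 96.9 in shLUC (6.84, SE 0.85, limma adjusted p = 2.3e-07). Its H3K27ac was 84.2 to 93.1 against 99.9 and 99.8 (−6.22, SE 0.76, limma adjusted p = 5.6e-06). HNRNPF and U2AF2 went with HNRNPM, at 5.25 and 4.72 for H3K4me1 and at −7.03 and −4.16 for H3K27ac. With only summits near the gene ends, HNRNPF had −2.09 for H3K4me1 and HNRNPM 1.85 for H3K27ac. In HNRNPH3 and HNRNPM the titled shLUC values fell in or near the range that the shHNRNPU libraries had for the other mark. A difference between the antibodies and a difference between the conditions cannot be told apart in these comparisons.

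With the names exchanged, 0 members were called in limma. For H3K4me1, 0 of 52 members passed, with a smallest adjusted p of 0.666, against 0.0138% of all genes called higher and 0.00689% lower. An unadjusted p under 0.05 was found at 3 of 52 members and at 962 of 14519 genes, a like share. These 3 were HNRNPR (−0.88, SE 0.38), LSM14A (−1.23, SE 0.56) and HNRNPA1 (0.92, SE 0.45). For H3K27ac, 0 of 61 passed, with a smallest adjusted p of 0.702, against 0.0% of all genes called higher and 0.00991% lower. An unadjusted p under 0.05 was found at 4 of 61 members and at 655 of 10091 genes, again a like share. These were LSM8 (−2.20, SE 0.82), HNRNPH1 (−2.26, SE 0.90), SF3A1 (−2.27, SE 0.93) and SF3B2 (−1.86, SE 0.77). The median difference was 0.06 for members and −0.02 for all genes for H3K4me1, and −0.52 and −0.37 for H3K27ac. A p that misses the threshold does not show equality, and the 95% interval for HNRNPH3 still ran from −0.95 to 0.64 for H3K4me1 and from −1.47 to 2.01 for H3K27ac.

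The titles do not matter if each gene keeps its best summit over both histone antibodies. In that fit, added after seeing the data, 0 of 72 members passed in limma, with a smallest adjusted p of 0.451, against 0.00623% of all genes higher and 0.00623% lower. An unadjusted p under 0.05 was found at 5 members, all lower in shHNRNPU (LSM8, HNRNPH1, SF3A1, LSM1 and SNRPD3), and at 1162 of 16048 genes, of which 963 were lower. The median difference was −0.24 for members and −0.18 for all genes.

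**Figure D5:**
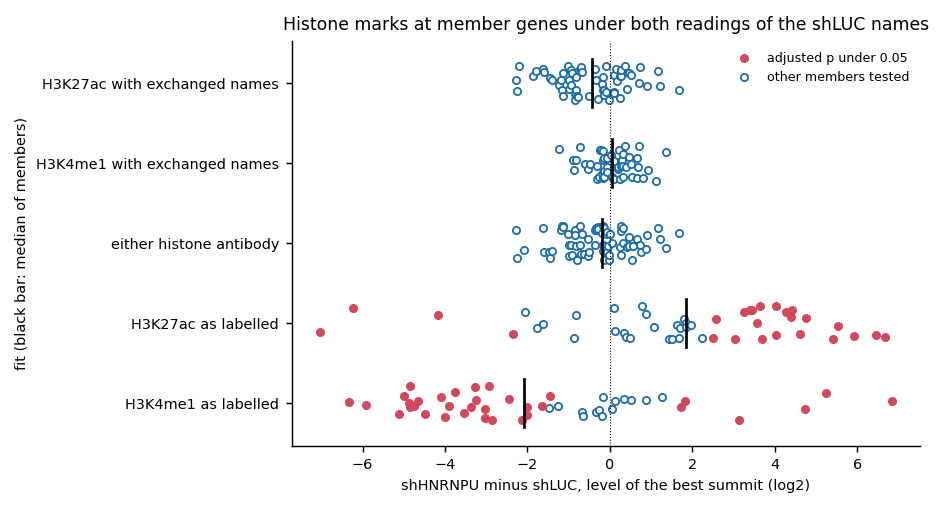
Difference in level (log2 of the list share, shHNRNPU minus shLUC) of the tested members (1 not drawn) for H3K4me1 and H3K27ac, as labelled, with exchanged names and over either antibody. Red points have a limma adjusted p under 0.05 and black bars are medians of the points drawn. As labelled the members spread from −7.03 to 6.84, and with exchanged names from −2.27 to 1.68, where no point is red.

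The 2 hairpins were compared without any shLUC library, a fit also added after seeing the data. In limma 0 of 54 members passed for H3K4me1, against 0.0606% of all genes, and 9 members and 1556 of 14862 genes had an unadjusted p under 0.05. For H3K27ac 0 of 61 passed, against 0.125% of all genes. There 11 members had an unadjusted p under 0.05, all lower in shHNRNPU#1, and so had 1493 of 10423 genes, 1418 of them lower. PRPF4 was at 89.0 and 83.7 in shHNRNPU#1 and 98.5 and 98.7 in shHNRNPU#2 (−3.28, SE 0.93, limma adjusted p = 0.102). PRPF38A was at 82.2 and 78.8 against 97.7 and 98.0 (−3.20, SE 0.93, limma adjusted p = 0.116). These 2 genes had the largest H3K27ac differences of the members tested, and neither passed the adjustment. The H3K27ac shHNRNPU#1 lists were also shorter than those of shHNRNPU#2, with 51655 and 40487 summits against 75264 and 85142, and the median over all genes was −0.67 against −0.84 for the members. The part of list length in these differences was not tested.

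Splicing genes outside the rule were described in the same way, on a list of 63 snRNP proteins, helicases, kinases and RNA-binding regulators such as SNRNP200, DHX15, PTBP1 and CLK1. HNRNPU had a summit in both repeats at 57 (90.5%) and above the 90th percentile in both at 18 (28.6%), against 13.3% of all genes. POLIIS2P was above it in all 3 libraries at 36 (57.1%), against 23.3%, and H3K27ac in the 4 shHNRNPU libraries at 20 (31.7%), against 10.2%. H3K4me1 was above it at 11 (17.5%), near the 19.6% of all genes. Under POLIIS2P, 25 of 62 were above the shLUC range and 19 below. As labelled, H3K4me1 was lower at 24 and higher at 5 of 46 tested, and H3K27ac was higher at 17 and lower at 3 of 40. With the names exchanged 0 of 42 and 0 of 52 were called in limma, with 3 and 4 at an unadjusted p under 0.05.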

How the data were processed

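CUT&Tag peak summits of 17 libraries of H1 cells were analysed. Per the labels, the submitters' processing notes name cutadapt, Bowtie2, SAMtools, MACS2 and deepTools with build hg38 and give no versions or order. The deposited score of each summit is in −log10 units of a p or q value from the peak caller, and the authors called peaks in each library separately; a series-wide HNRNPU interval list was also deposited, with a score of 0 throughout, and only its positions were used. Sequencing depth was unknown, so no count model or interval was computed.

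Each protein-coding gene of the RefSeq GRCh38.p14 table was given its best summit within the gene plus 1000 bp on each side, as the mid-rank percentile of its list and as a level, minus log2 of the share of the list scoring at least as high. Levels were compared with limma 3.58.1 in R 4.3.3 (trend, two-sided, Benjamini-Hochberg over all genes with a summit in every library compared), which was tested on simulated data. Other steps used Python 3.11.15, pandas 2.3.3, numpy 2.4.6 and matplotlib 3.10.9. POLIIS2P, with 1 knockdown library, was described against the shLUC range without a test.

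Samples were grouped by title. The members, lists and tests were chosen with earlier results of these data known. Named genes were, per family, the 2 with the highest HNRNPU mean, members without an HNRNPU summit, at most 10 members called per fit, the 5 members furthest outside the POLIIS2P shLUC range each way, and HNRNPA1, HNRNPA2B1, HNRNPC, HNRNPK, HNRNPM, SRSF1, SRSF2, SRSF3, SRSF7, SNRPB, SNRPD1, SF3B1, SF3B4, PRPF8, LSM2, U2AF1 and U2AF2. Other members were named after their values were seen. The values of 1 member are not reported here, although it is counted. Fits over either histone antibody, between the hairpins and counts of called members were added after seeing the data. Alternatives were gene ends only, a summit in at least 1 library, the 20000 strongest summits, the percentile as value, single hairpins, a replicate block and leaving out each library.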

Additional observations from a re-analysis of the deposited data

Results flagged for a closer look

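Among the members' groups of 4 libraries, 36 were examined for a value far from the others, and chance alone picks out about 1 in 20. Both picked out were H3K27ac in shHNRNPU, and in both the odd value was repeat 2 of shHNRNPU#1, the shortest of the 4 lists. PRPF8 had a level of 0.78 there, a percentile of 41.7, while the other libraries were at 86.6 to 88.7. SNRPD1 had a level of 3.79 there, a percentile of 92.8, while the other libraries were at 99.3 to 99.5. The part of that library's list length in either value was not tested.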

How the results depend on the processing

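As labelled, 6189 genes and 35 members were called for H3K4me1 and 4120 genes and 26 members for H3K27ac. With gene ends only the gene counts were 2685 and 1486, with a summit in at least 1 library 55 H3K4me1 members and 7734 H3K27ac genes were called, and with the percentile as value 1823 H3K27ac genes. With exchanged names 3 genes were called for H3K4me1 and 1 for H3K27ac. For H3K4me1 this became 79 with shHNRNPU#1 alone, 10 with shHNRNPU#2 alone, and 0 with a summit in at least 1 library, the 20000 strongest summits or the percentile as value, while for H3K27ac it became 4 with shHNRNPU#1 alone and 0 with those 3 settings or gene ends only. Either antibody gave 2 genes, and 0 with shHNRNPU#1 alone. The causes were not tested. No alternative run called a member with exchanged names or with either antibody. Gene ends only reversed HNRNPF for H3K4me1 (−2.09) and HNRNPM for H3K27ac (1.85) as labelled, and HNRNPR for H3K4me1 with exchanged names (0.074). Among the other values of single members, 459 were kept, 2 lost significance and 2 moved. A limma value was kept if direction and side of the threshold stayed. HNRNPU and POLIIS2P values were kept if they shifted by less than the standard deviation of the 2 HNRNPU or 2 shLUC libraries. Leaving out 1 of 2 libraries always shifts a mean by less than that, so such values could not move by construction.

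Leaving out 1 library gave 5630 to 6151 genes and 34 to 36 members for H3K4me1 as labelled, 2232 to 4756 and 22 to 34 for H3K27ac as labelled, 3 to 9 genes for H3K4me1 and 0 to 1 for H3K27ac with exchanged names, 0 to 2 for either antibody, and 0 members in the fits with exchanged names or either antibody. Members with an HNRNPU summit were 69 to 72. With the 20000 strongest summits, 32 of 59 members were above the POLIIS2P shLUC range and 12 below. With 1 shLUC library left out the range is a single value, so all 77 to 78 members fall outside it by construction (45 to 51 above, 27 to 32 below), and these counts cannot be compared with the 38 and 20 of the full range. With a replicate block, exchanged-name H3K4me1 gave 6 genes and either antibody 1. Same-numbered libraries did not deviate together (correlations −0.0293 to 0.0213). Correlations of single best summits cannot exclude shared cultures, so whether the numbers pair the samples is unknown. Depth was unknown and limits every list.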
